A study of Mus musculus with 14 samples.

Results

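Il2ra and Il2rb encode the alpha chain (CD25) and the beta chain (CD122) of the receptor for interleukin-2. They were described here through the 169 peaks, of 309136 in the 10 deposited peak lists, that touched a window around either gene, 122 at Il2ra and 47 at Il2rb. The windows are those of genome build mm39: chromosome 2 from 11625000 to 11710000 for Il2ra, whose gene runs near 11647600 to 11698000 on the plus strand, and chromosome 15 from 78345000 to 78400000 for Il2rb, whose gene runs near 78363400 to 78379500 on the minus strand. The choice of windows used no measured value. Distances below are in kb from the gene start in the direction of transcription, so that upstream positions are negative. Because these gene starts are approximate, the shortest distances, and the side of the start they fall on, are approximate too.

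The lists came from CUT&Tag, in which an antibody directs a transposase to chromatin that carries a histone mark, on mouse regulatory T cells sorted by FACS, with 140000 cells per sample. Knockout cells came from Foxp3YFP-Slc31a1△;wt chimeras and control cells from Foxp3YFPcre;wt chimeras; both names carry a YFP allele at Foxp3, the lineage factor of regulatory T cells, and the knockout adds the deletion of Slc31a1 (CTR1, the copper importer of the cell surface). No label gives an age or sex. H3K27ac, a mark of active promoters and enhancers, had lists for 3 knockout and 3 control samples. H3K27me3, the mark set by Polycomb repressive complexes, had lists for 2 knockout and 2 control samples, and the IgG samples were not analysed here. Within each mark and genotype every sample carries a chimera number of its own, but the numbers recur between genotypes and marks. H3K27ac knockout 1 and control 1 carry number 2, as do H3K27me3 knockout 2 and control 2. H3K27ac replicates 2 and 3 carry numbers 3 and 4 in both genotypes, and H3K27me3 replicate 1 carries number 1 in both. No label says what a shared number means or whether a numbered chimera is 1 animal or several pooled. A p-value here therefore covers only the spread between these samples.

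The alpha chain raises the affinity of the receptor for interleukin-2 and has almost no signalling part of its own, whereas the beta chain, paired with the common gamma chain, binds JAK kinases and passes the signal to STAT5. Regulatory T cells make little interleukin-2 themselves and depend on taking it up from their neighbours, and high CD25 is one of the markers by which they are recognised. The beta chain also serves the receptor for interleukin-15. In the RefSeq gene table of GRCm38.p6, used only for the order of genes, Il2ra lies between Rbm17 on its upstream side and Il15ra, the alpha chain of the interleukin-15 receptor, on its downstream side. Il2rb lies between C1qtnf6 on its upstream side and Tmprss6 on its downstream side.

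An H3K27ac peak lay over the gene start of both Il2ra and Il2rb in every H3K27ac list. Only the Il2ra promoter is shown, because the promoter sequences used held no entry for Il2rb. The sequence is that of RefSeq, GRCm38.p6, chr2:11642542-11642841, plus strand, with 250 bases before and 50 after the start, and capitals mark the matches to 2 short motifs.
Il2ra promoter: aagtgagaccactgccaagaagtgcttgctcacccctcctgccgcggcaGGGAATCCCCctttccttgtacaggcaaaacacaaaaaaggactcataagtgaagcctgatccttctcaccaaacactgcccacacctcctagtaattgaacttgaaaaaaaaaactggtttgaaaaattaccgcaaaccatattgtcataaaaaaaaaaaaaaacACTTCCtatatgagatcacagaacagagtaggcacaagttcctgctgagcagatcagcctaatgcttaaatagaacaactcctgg
The first capitals match GGGANNNNCC, an NF-kB-like motif, on the plus strand, beginning at base -201 from the start, and 20.7% of the 32851 RefSeq promoters of this length hold such a match on either strand. The second match GGAAGT, the core of ETS sites, on the minus strand, and 23.8% of promoters hold one. TTCNNNGAA, a STAT-like motif found in 8.30% of promoters, and GTAAACA, a forkhead-like motif found in 3.65%, had no match in this window on either strand. The 2 matches do not overlap and are a description of the letters only.

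Across libraries, H3K27ac lists held 21326 to 28289 peaks in knockouts and 27986 to 32012 in controls, with 37.7 to 47.2 Mb and 42.3 to 43.3 Mb under peaks. The median peak was 901 to 1063 bp wide in knockouts and 812 to 846 bp wide in controls. The genome-wide background read back from the lists, a measure of depth, was 9.10 to 11.0 fragments per kb in knockouts and 8.49 to 12.4 in controls. The background library behind the lists came to 20.6 to 20.7 fragments per kb in knockouts and 13.1 to 16.1 in controls, so that the background library and the genotype cannot be told apart in any comparison below. H3K27me3 control 1 stood apart: its list had 7512 peaks, against 36436 and 57728 in the knockouts and 43945 in control 2.

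Both genes lay in broad acetylated chromatin in every library, and neither had a Polycomb peak in any. The share of like-sized windows in the genome without a Polycomb peak is not given here. The lack of one is therefore not read as particular to these genes. Il2ra was covered by H3K27ac peaks over most of its window, from far upstream to near the end of the gene. Il2rb was covered over nearly the whole gene and had 2 separate upstream stretches. Of the stretches tested at these genes, limma fitted across the genome called only the upstream one farther from Il2rb, with fewer covered bases in knockouts. At the same adjusted p under 0.05, 1.9% of all regions tested in the genome were called lower. The call at Il2rb was lost under some other settings of the fit and when knockout 2 or any control was left out, as given below.

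**Figure D1:**
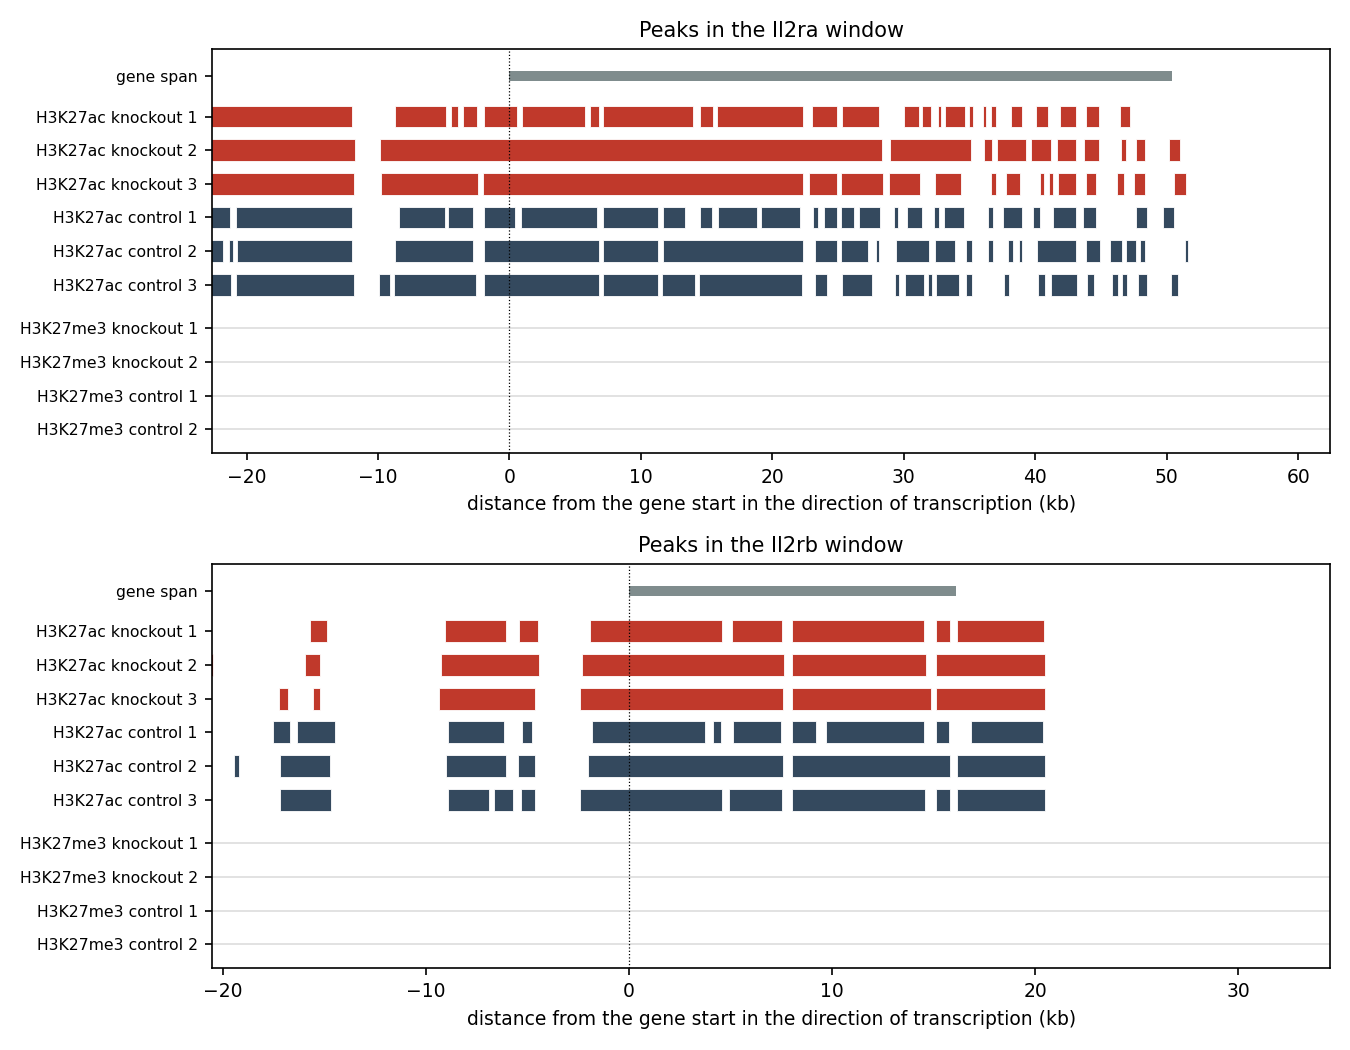
Positions of the deposited peaks in the Il2ra window (top) and the Il2rb window (bottom), with 1 line per library, in kb from the gene start in the direction of transcription; knockout libraries are above control libraries and the grey bar is the gene. The 4 H3K27me3 lines are empty, and the stretch between -17.5 and -14.5 kb at Il2rb has fewer covered bases in the 3 knockouts than in the 3 controls.

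Il2ra had 52324, 64024 and 58865 bases under H3K27ac peaks in knockouts 1 to 3, against 50519, 55055 and 53675 in controls 1 to 3. That is 61.6, 75.3 and 69.3% of the window in knockouts and 59.4, 64.8 and 63.1% in controls. Knockouts 2 and 3 were above every control and knockout 1 was within their range, so the groups overlapped. The means were 58404 ± 5864 bases for knockouts and 53083 ± 2325 bases for controls (SD, n = 3 each), 10.0% more in knockouts, with a two-sided exact permutation p of 0.3, where 0.1 is the smallest that 3 against 3 can give. Adjusted by Benjamini-Hochberg over the 10 tests of window measures, 5 for each gene, it was 0.6. The difference of 5321 bases was 2512 without knockout 2, 8362 without knockout 1 and 9214 with the lists cut to equal length.

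Within the window, the sequence upstream of Il2ra held 17907, 20675 and 20173 covered bases in knockouts and 17412, 17683 and 19420 in controls. The gene body held 34417, 42761 and 37740 covered bases in knockouts and 32948, 37093 and 33810 in controls. Downstream of the gene, at most 952 bases were covered in any library. The groups overlapped in each of these 3 stretches, which were not tested by themselves.

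Peaks less than 1 kb apart were joined into domains. The widest Il2ra domain, which ran over the gene start in every library, was 36781, 54655 and 41012 bp long in knockouts and 21767, 36799 and 32197 bp in controls. Knockout 1 fell just below control 2, so the groups overlapped by that single pair. Means were 44149 ± 9341 bp for knockouts and 30254 ± 7702 bp for controls (SD, n = 3 each), with an exact permutation p of 0.2, two-sided, adjusted 0.6. Ranked by width within its own list, the domain came 29, 29 and 41 in knockouts and 109, 42 and 63 in controls, out of 15807 to 23079 domains. Il2ra was therefore among the widest acetylated domains of every library.

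The peaks in the Il2ra window varied most in number and width among the knockouts. The window held 24, 11 and 16 peaks in knockouts 1 to 3, against 26, 22 and 23 in controls 1 to 3, with knockout 1 inside the range of the controls (exact permutation p = 0.3, two-sided, adjusted 0.6). With the lists cut to equal length the means were 15 peaks in knockouts and 16 in controls (exact permutation p = 0.8, two-sided), and the difference of -6.67 peaks as deposited was -10.2 without knockout 1 and -3.67 without knockout 2. The widest single peak of the Il2ra window was 12973, 38161 and 24357 bp long in knockouts, against 8787, 10688 and 8952 bp in controls. Each knockout was above each control, and the exact permutation p of 0.1 is the smallest this design allows. It was 0.6 after adjustment. These peaks were not the same stretch: in knockout 1 and controls 1 and 3 they lay upstream of the domain over the gene start. Inside that domain the widest peaks were 6882, 38161 and 24357 bp in knockouts and 5764, 10688 and 8752 bp in controls. The groups overlapped there. The same lack of overlap as in the window was found, in this direction, for 10.1% of all joined runs of peaks in the genome, a share per run and not per window. Median peak width over the whole list moved the same way, as given above, and its part in this result was not tested. In knockout 2 the widest peak was a single call on chromosome 2 from 11637773 to 11675933, across the gene start. Every other library had several peaks with short gaps there.

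**Figure D2:**
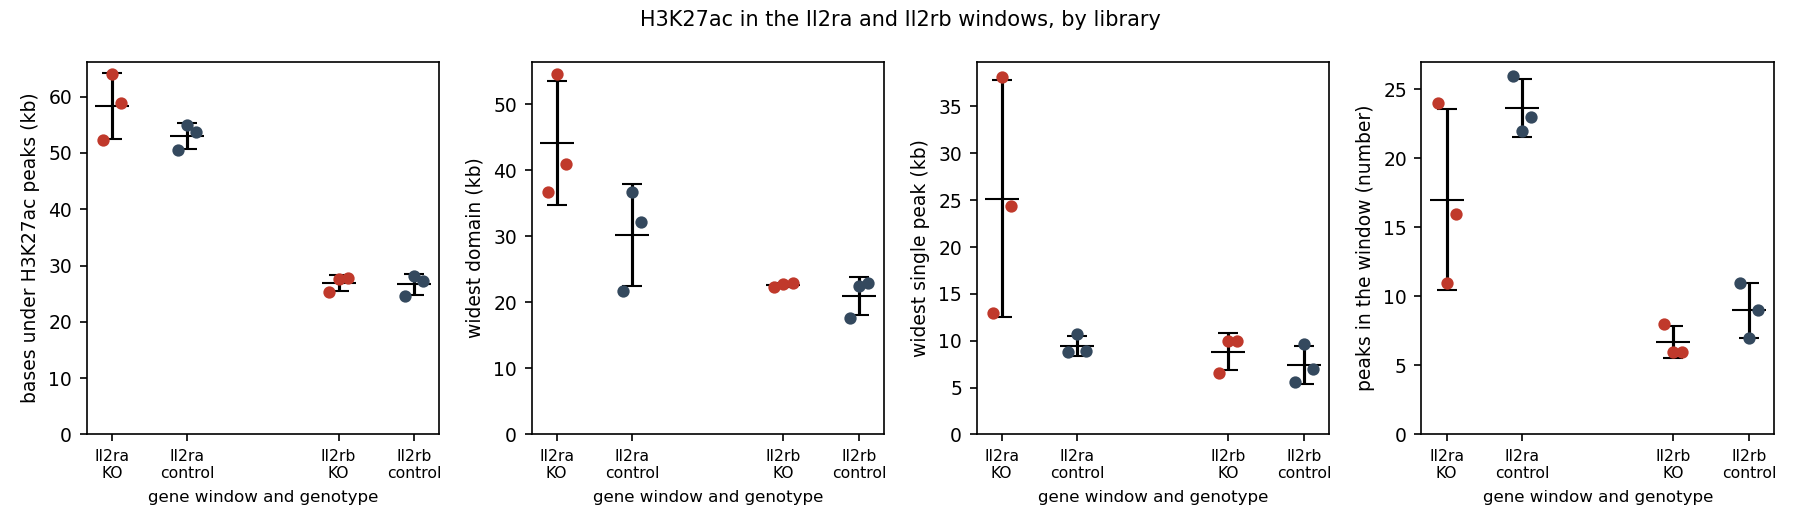
Bases under H3K27ac peaks, widest domain, widest single peak and number of peaks in the Il2ra and Il2rb windows; each point is a library, with the mean and SD of 3 libraries per genotype. The groups overlap in every panel except the widest single peak of the Il2ra window, at 12973 bp or more in knockouts and at most 10688 bp in controls. That peak was not the same stretch in every library.

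Peak height was compared as the pileup, the number of fragments stacked at a summit, which was read back from the deposited fold and -log10 p of each peak and given as a multiple of the genome-wide background of its library. The highest Il2ra pileup was 114, 134 and 101 times that background in knockouts and 94.8, 100.1 and 121 times in controls. Knockout 2 was the highest of all, and the other libraries were interleaved (exact permutation p = 0.5, two-sided, adjusted 0.667). In 5 of the 6 lists this summit fell on the same base to within 1 bp, in the gene body 10.7 kb from the start. Knockout 3 had its highest summit at -7.32 kb instead.

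At that shared base the authors' fold enrichment did not follow the pileup. The fold was 3.81 and 4.70 in knockouts 1 and 2, against 2.67, 8.21 and 9.72 in controls 1 to 3, a 3.64-fold range. The pileup was 291 and 409 fragments in knockouts 1 and 2, against 273, 209 and 256 in controls 1 to 3, and as a multiple of the genome-wide background its range over the 5 lists was 1.42-fold. The local background that the fold was measured against was 29.6 and 28.3 times the genome-wide level in knockouts 1 and 2, against 35.3, 11.8 and 12.1 times in controls 1 to 3. Control 1 was with the knockouts, not with the other controls, in its local background, and its fold was the lowest of the 5.

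**Figure D3:**
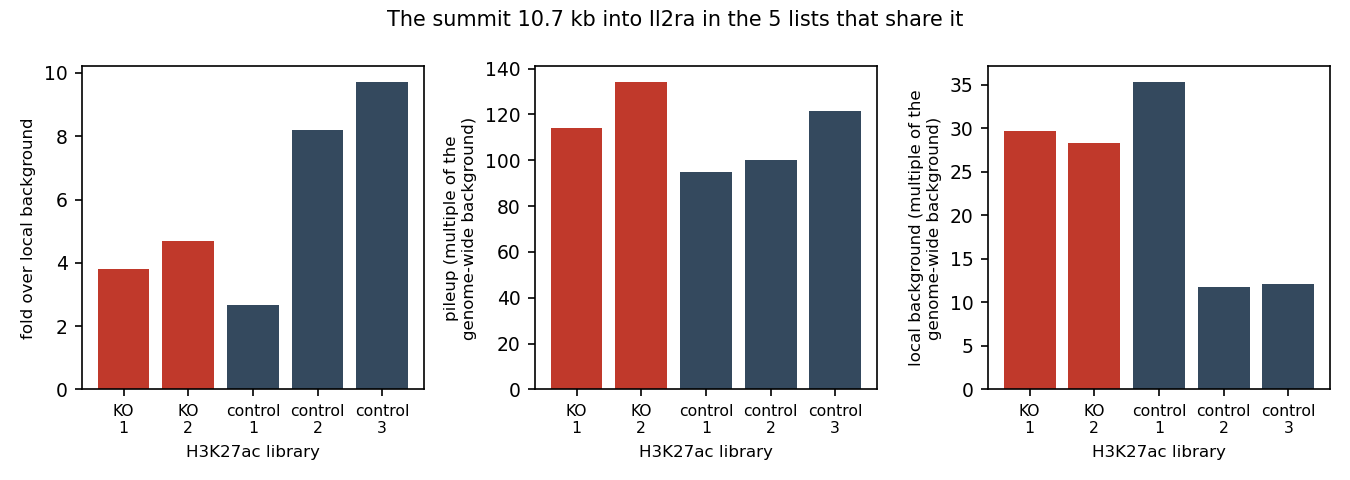
Fold over local background as deposited, pileup and local background (both as multiples of the genome-wide background) at the summit 10.7 kb into Il2ra, in the 5 H3K27ac lists that share it, 1 bar per library with no replicate error. Controls 2 and 3 have the highest folds, 8.21 and 9.72, and the lowest local backgrounds, 11.8 and 12.1, while the pileups lie between 94.8 and 134.

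A summit 0.025 kb from the approximate Il2ra start, near the promoter, was present in 3 lists. Its pileup there was 75.2 times the genome-wide background in knockout 1, against 68.4 in control 1 and 83.9 in control 3. In the other lists the start lay inside a peak whose summit was elsewhere. Farther upstream, near -16.5 to -16.8 kb, a summit stood in every list, with a pileup of 56.8, 80.1 and 77.4 in knockouts and 44.5, 63.2 and 67.3 in controls, so the groups overlapped.

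Merging the H3K27ac peaks of the 6 lists gave 9 regions at Il2ra, of which 7 had a peak in all 6 lists, against 34.9% of all 37573 merged regions of the genome. None was private to a genotype. In limma, on log2(bases + 100) over the 22443 regions with a peak in at least 3 libraries, 0.486% of regions were called higher and 1.90% lower in knockouts at an adjusted p under 0.05. No Il2ra region was called, and none had an unadjusted p under 0.05. The region over the gene start, 38342 bp long from -9.96 to 28.4 kb, had 32530, 38161 and 37059 covered bases in knockouts and 30260, 33446 and 33627 in controls, a log2 change of 0.10 with overlapping groups.

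The upstream Il2ra region from -26.3 to -11.8 kb had 13339, 14547 and 14482 covered bases in knockouts, against 11930, 12251 and 13123 in controls. Each knockout was above each control here, which was so for 10.2% of the regions tested, and limma did not call it. Its highest pileup, the summit near -16.5 kb, had a log2 change of 0.41, with an adjusted p of 0.61 in limma over the 13106 regions found in every list. With the replicate numbers of the labels as a block that p was 0.00253, although in pileup only replicate 1 correlated best with its own number. The region over the Il2ra start, with a log2 change of 0.26 in highest pileup, had an adjusted p of 0.641 without and 0.0294 with the block. That fit called 9.13% of all regions higher in knockouts, against 0.0534% without the block, so such a call was common in it.

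The Il2ra regions with the most extreme changes were short ones inside and at the end of the gene. The region from 36.0 to 37.0 kb had the most positive, with 629, 669 and 430 covered bases in knockouts and 353, 403 and 0 in controls, a log2 change of 1.19 that limma did not call. It was 0.44 without control 3, which had no covered base there, and 2.29 and 0.32 with pseudocounts of 10 and 1000 bases. The region from 49.8 to 51.6 kb had the most negative, with 0, 801 and 952 covered bases in knockouts and 809, 279 and 492 in controls, a log2 change of -0.41 whose direction depended on knockout 1. Of the 10 kb bins at Il2ra, the one from 11670001, inside the gene, had 6508, 9377 and 7653 covered bases in knockouts and 5464, 6460 and 5307 in controls, a log2 change of 0.41 with an adjusted p in limma of 0.219. Each knockout was above each control in that bin, as in 9.64% of all bins tested. The median log2 change over the Il2ra regions was 0.14, against -0.06 over all regions tested.

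Il2rb had 25272, 27591 and 27729 bases under H3K27ac peaks in knockouts, against 24551, 28189 and 27305 in controls. The libraries of the genotypes were interleaved, with replicate 1 the lowest in each. Means were 26864 ± 1380 bases for knockouts and 26682 ± 1897 bases for controls (SD, n = 3 each), the two-sided exact permutation p was 0.8 before and after adjustment, and the sign of this difference changed when knockout 2, knockout 3 or control 1 was left out.

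The widest Il2rb domain reached from upstream of the gene start to past the end of the gene in 5 of the 6 libraries. It was 22344, 22830 and 22889 bp long in knockouts and 17616, 22480 and 22881 bp in controls. Control 1 alone was short, and the others lay close together (exact permutation p = 0.6, two-sided, adjusted 0.667). The window held 8, 6 and 6 peaks in knockouts and 11, 7 and 9 in controls (exact permutation p = 0.2, two-sided, adjusted 0.6). The widest Il2rb peak was 6529, 9950 and 9999 bp long in knockouts and 5590, 9601 and 6997 bp in controls, with overlapping groups (exact permutation p = 0.5, two-sided, adjusted 0.667).

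The highest Il2rb pileup was 142, 150.1 and 121 times the genome-wide background in knockouts, against 140.3, 139.9 and 198 times in controls. Control 3 was the highest and knockout 3 the lowest, and the rest lay within a narrow range (exact permutation p = 0.6, two-sided, adjusted 0.667). The summit was near the promoter, from 0.061 to 0.208 kb after the approximate gene start, in knockouts 1 and 2 and in controls 1 and 3. It was 1.44 kb into the gene in knockout 3 and 1.54 kb in control 2. In each of the 6 libraries the highest Il2rb pileup was above the highest Il2ra pileup.

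Merging gave 6 regions at Il2rb, 4 of them with a peak in all 6 lists. The region over the gene start, from -2.39 to 7.62 kb, had 8990, 9950 and 9999 covered bases in knockouts and 8377, 9601 and 9629 in controls, a log2 change of 0.03. The region from 8.01 to 20.5 kb, over the later part of the gene and beyond its end, had 11429, 12022 and 12225 covered bases in knockouts and 10198, 12098 and 11578 in controls. The other regions with peaks in 1 list only were 246 bp in control 2 and 1120 bp in knockout 2. The median log2 change over the tested Il2rb regions was 0.03, against -0.06 over all regions tested.

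Upstream of Il2rb lay 2 regions found in every list. The nearer one, from -9.35 to -4.41 kb, had 4012, 4849 and 4747 covered bases in knockouts, against 3285, 3780 and 3617 in controls. Each knockout was above each control, as in 10.2% of the regions tested, and limma did not call its log2 change of 0.30 (adjusted p = 0.332). Its highest pileups overlapped, at 37.6, 43.7 and 34.1 times the genome-wide background in knockouts and 27.4, 38.8 and 37.0 times in controls. The farther one lay from -17.5 to -14.5 kb (chr15:78393980-78397004). It had 841, 756 and 758 covered bases in knockouts, against 2691, 2464 and 2481 in controls, with wide separation and little spread within either group.

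Covered bases of that farther region averaged 785 ± 48.5 for knockouts and 2545 ± 126 for controls (SD, n = 3 each). On the log2 scale it fell by 1.62 (SE 0.152), with an adjusted p of 0.0267 in limma, and it was the 1 region called among the 13 tested at the genes, against the 1.90% called lower in the whole genome. The 10 kb bin from 78390001, which holds it, had 841, 770 and 758 covered bases in knockouts and 2691, 2710 and 2481 in controls; the log2 change of -1.64 (SE 0.172) had an adjusted p of 0.0171, where 2.25% of the 19295 bins tested were called lower and 0.58% higher. The region's call ended with a pseudocount of 10 bases (adjusted p = 0.0585) and under the replicate block (0.0993), and it ended without knockout 2 (0.0629), control 1 (0.122), control 2 (0.146) or control 3 (0.139). The bin's call ended with the block (0.0519) and without the same libraries, at adjusted p values of 0.0689 without knockout 2 and 0.0974, 0.13 and 0.117 without controls 1, 2 and 3.

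The peak itself was present in every library. A summit lay between -15.3 and -15.2 kb in all 6 lists, within 92 bases of each other, so the peak was not missing in knockouts. The pileup there was 41, 43 and 29 fragments in knockouts 1 to 3, against 75, 52 and 61 in controls 1 to 3. The highest pileup of the region was 16.1, 14.1 and 12.5 times the genome-wide background in knockouts, against 26.0, 24.9 and 28.9 times in controls, and every knockout was below every control, as in 11.4% of the regions found in every list. The log2 change in highest pileup was -0.79 (SE 0.188), with an adjusted p in limma of 0.0906 without the replicate block and 0.000155 with it, a fit that called 7.33% of all regions lower, against 0.298% without the block.

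The local background at this summit was 4.38, 3.30 and 4.04 times the genome-wide level in knockouts, against 4.55, 3.44 and 3.91 times in controls. The authors' fold, 3.45, 3.98 and 2.80 in knockouts, against 5.39, 6.47 and 6.70 in controls, differed in the direction of the pileup. The background library differed between the genotypes, as given above, and its part here was not tested. Knockout 3 alone among the knockouts had a second, separate peak in the region, 456 bp long at -17.0 kb, and control 1 had one of 838 bp at the same place. In controls 2 and 3 a single peak ran across both summits. The next gene on that side in GRCm38.p6 is C1qtnf6, and to which gene this stretch belongs was not tested.

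**Figure D4:**
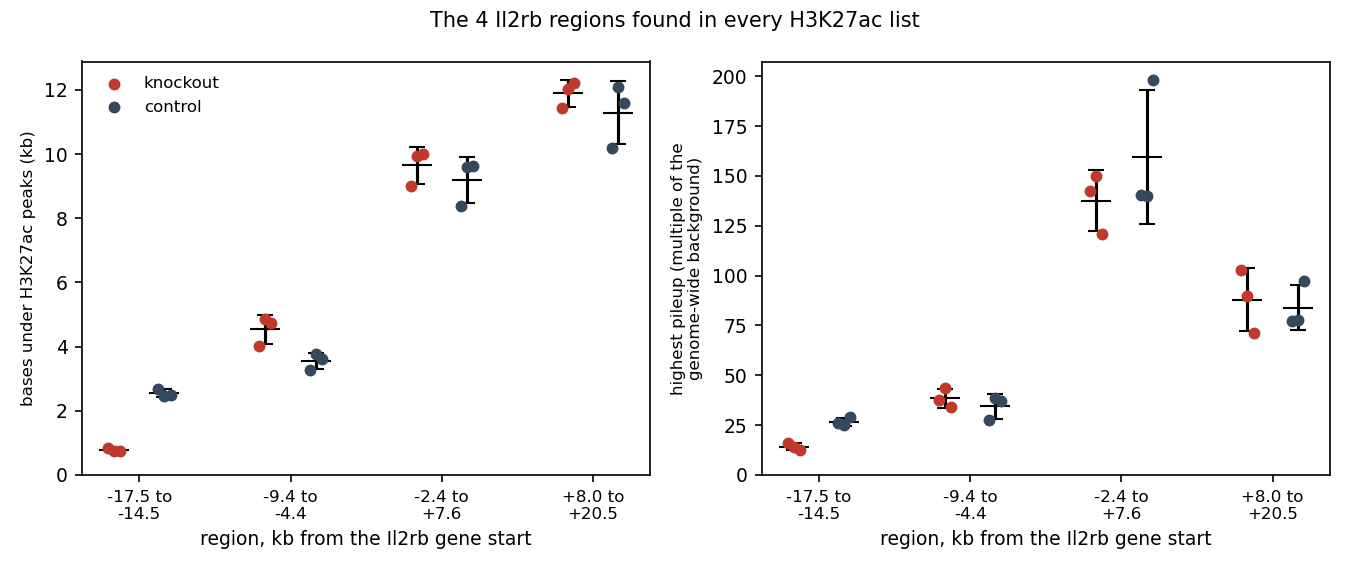
Bases under H3K27ac peaks (left) and highest pileup as a multiple of the genome-wide background (right) in the 4 Il2rb regions that have a peak in all 6 lists, ordered from upstream to downstream, with 1 point per library and the mean and SD of 3 libraries per genotype. In the region from -17.5 to -14.5 kb the knockouts have at most 841 covered bases and the controls at least 2464; the region from -9.35 to -4.41 kb was not called.

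H3K27me3 had 0 peaks in the Il2ra window and 0 in the Il2rb window in every list, 2 knockout and 2 control, and none when the windows were widened by 20 kb on each side. The nearest H3K27me3 peak to the Il2ra window was 535 and 124 kb away in knockouts 1 and 2, against 595 and 124 kb in controls 1 and 2. The nearest to the Il2rb window was 88.6 and 39.9 kb away in knockouts, against 196 and 40.9 kb in controls. The distances were alike in knockout 2 and control 2, and the shortest list, control 1, had the longest distance at both genes. The authors' -log10 p of the peaks in the control 1 list ran only from 2.015 to 7.21. That whole range lay below the lowest value in each other H3K27me3 list, which was 9.0163 in control 2. The control 1 list therefore holds peaks at a looser p than any in the other lists. Its distances and its lack of peaks cannot be set beside those of the other lists. With no covered base there was nothing to test, and 2 against 2 could not have given an exact p under 0.33. A list of peaks over a threshold gives no limit on weaker H3K27me3 signal. H3K27me3 peaks covered 30.6 and 62.8 Mb in knockouts 1 and 2, against 4.89 and 40.5 Mb in controls 1 and 2. How common windows without such a peak are in the genome is not given here.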

How the data were processed

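Per the submitters' processing notes, the tools were Bowtie2 2.2.4, deepTools 3.5.1, MACS2 (no version), ChIPseeker 1.30.3 and HOMER 4.11, with build mm39; settings, handling of duplicates and use of IgG: not given in the sources used here. Every deposited list belongs to 1 library and holds peak positions and summits, a whole-number score, the fold over local background as a ratio, and p and q values as -log10, all the authors' values. They were used to describe or rank peaks within a list and to filter them. Pileup and local background were read back from them under a Poisson model. The H3K27ac pileups checked came out whole (100% within 0.02 fragments), but only lower pileups were checked. The highest pileups of both windows were above the range of that check. The narrowest peak of a list was taken as its fragment length. Total read counts were not used here.

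Coordinates count from 1. Overlap began at 1 bp. Window measures were tested by exact permutation. Bases under peaks per 10 kb bin and per merged region, and log2 of the highest pileup, were fitted with limma 3.58.1 in R 4.3.3 (trended, robust, no block, pseudocount of 100 bases, centred on the median of features covered in every library, Benjamini-Hochberg over all features). The bin and region fits were also run on simulated data with independent normal noise. Such data carry no effect shared by same-numbered libraries, so that run could not show how the fits behave with one. Bins or regions had to be covered in at least 3 H3K27ac libraries. Changes are knockout minus control on that log2 scale. The pileup fit, peak number, widest peak and highest pileup were added after seeing the data. Deviations of same-numbered libraries had correlations of 0.715, 0.29 and 0.284 in highest pileup. They were 0.246, 0.053 and 0.0102 for bases per bin and 0.242, 0.0629 and 0.0146 per region. In each measure only replicate 1 correlated best with its own number. The replicate numbers are those of the labels and pair the H3K27ac libraries as their chimera numbers do. The labels state no shared batch, so the block is given beside pileups and where it ended a call.

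The choice of windows used no measured value, as given above, but the genes were chosen with earlier results of these data known. The lists of pathway genes and cell type markers were also written with those results known. Regions named are those over the gene start, with the widest peak, in 1 genotype only, called, or with the most positive or negative change; the others were chosen after their values were seen. Other pathway genes and cell type markers were not analysed here, since no mm39 annotation was used, and so the identity of the cells rests on the sort. The alternatives tried are given with the closing remarks.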

Additional observations from a re-analysis of the deposited data

How the results depend on the processing

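Of the H3K27ac window measures, only the Il2rb covered bases changed sign, from 182 more bases in knockouts to -181 without knockout 2, -250.2 without knockout 3 and -883 without control 1, and their range over left-out libraries was -883 to 978. The widest Il2ra domain was longer in knockouts by 8642 to 17579 bp when 1 library was left out, and by 7994 bp with gaps of up to 3 kb joined. With the replicate block, exact p values were 0.25 for Il2ra bases and 0.75 for Il2rb bases, where 3 pairs can give no p under 0.25. The number of called stretches in the windows was 1 for bins and 1 for regions and ranged from 0 to 1 when 1 library was left out. It was 0 for regions with a pseudocount of 10 bases. The replicate block also gave 0 for bins, with an adjusted p of 0.0519 in limma for the bin at Il2rb, and 0 for regions, with an adjusted p of 0.0993 for the region at Il2rb; its log2 change was -1.73 to -1.02 over all alternatives. Only replicate 1 correlated best with its own number. For the highest pileup the number was 0, and it was 3 with the block, 1 with quantile normalization and 0 to 1 without 1 library (1 without knockout 1). Leaving pileups uncentred moved the median over all regions from 0.04 to -0.07. Genome-wide calls changed far more: 547 bins as reported, 30 with a pseudocount of 10, 788 with 1000, 327 with no filter, 32 with the block and 0 to 1219 without 1 library; for regions 536, 1, 854, 293, 7 and 1 to 1259; for pileups 46 as reported, 111 uncentred, 170 with quantile normalization, 2157 with the block and 3 to 476 without 1 library. Higher calls were 20.5% of called bins, 36.8% with lists cut to equal length, and 20.3% of called regions, 37.8% with equal lists and 30.7% with quantile normalization.

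Small changes that turned over were the Il2ra region at 49.8 kb (-0.41; 1.47 with equal lists, 0.70 without knockout 1, -1.09 without knockout 3), the region over the Il2rb start (0.03; -0.0053 with equal lists, -0.0745 without knockout 3, -0.05 without control 1, 0.0895 without knockout 2) and its highest pileup (-0.08; 0.04 without knockout 1, 0.0661 without control 3, -0.218 without control 1). H3K27me3 stayed at 0 bases and 0 bins under every alternative run. With no peak in either window, only widening the windows could have given another result. The causes of the changes in this section were not tested. Pileups of 29 to 75 fragments at the far Il2rb region carry wide counting error.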
